A study of Mus musculus with 30 samples.

Results

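The genes described here include 6 grouped as granule genes (Mpo, Elane, Prtn3, Ctsg, Ms4a3 and Fcnb). Ms4a3 is counted with them as a marker of granulocyte and monocyte progenitors. The other 4 encode C/EBP transcription factors (Cebpa, Cebpb, Cebpd and Cebpe). All 10 were measured in mouse bone marrow with and without Mettl3, the catalytic subunit of the enzyme that writes the m6A mark on RNA. They were taken by symbol. All 10 are among the 24063 genes of the bulk RNA-seq table, and 9 are among the 27933 genes of the single-cell table used here. Cebpd was not analysed in single cells. The Mettl3KO mice carried Mx1-Cre and Mettl3 fl/fl, and the WT mice carried Mettl3 fl/fl without the Cre, so both groups have the floxed allele. Mx1-Cre is switched on by interferon and acts in most blood cells as well as other tissues. Every mouse had received pIpC, an inducer of interferon, 3 weeks before, and the labels give no ages. Bulk RNA-seq was made from 4 sorted Lin-;Sca1+;c-Kit+ populations in 3 Mettl3KO and 3 WT libraries each. The gates were CD150+;CD48- for HSC and CD150-;CD48- for MPP1, and CD150+;CD48+ for MPP2 and CD150-;CD48+ for MPP4. Single-cell RNA-seq (10x) was made from Lin-;c-Kit+ (LK) cells of 3 Mettl3KO and 3 WT mice.

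Neutrophils and monocytes pack antimicrobial proteins into granules while they are still immature, and the genes of each granule type are read at a set stage of that maturation. Azurophil granules form first, in promyelocytes, and hold myeloperoxidase and the neutrophil serine proteases. C/EBP factors are leucine zipper proteins that bind DNA as dimers: C/EBPα (Cebpa) is needed for stem and progenitor cells to enter the granulocyte and monocyte path, C/EBPε (Cebpe) for the later specific granules, and C/EBPβ (Cebpb) for granulocyte production in emergencies. C/EBPδ (Cebpd) is an acute-phase member of the family.

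Mpo encodes myeloperoxidase, the haem enzyme that makes hypochlorous acid. Elane (neutrophil elastase), Prtn3 (proteinase 3) and Ctsg (cathepsin G) encode serine proteases of azurophil granules. Elane (chr10:79886247-79888215, plus strand, GRCm38) starts 3072 bases downstream of the end of Prtn3 (chr10:79874476-79883174, plus strand). Ms4a3 encodes a four-span membrane protein whose expression marks granulocyte and monocyte progenitors, and Fcnb encodes ficolin B, a lectin made during neutrophil maturation. RefSeq promoters (GRCm38.p6) matched 8 of the 10 genes. In the 150 bases before the RefSeq start, 3 short motifs were searched on both strands: GAGGAA, a core bound by PU.1; TTNNGNAA, a C/EBP site; and TGTGGT, the RUNX core. GAGGAA was found in 14.5% of 32851 mouse promoters and in Elane and Prtn3. TTNNGNAA was found in 22.8% and in Fcnb and Ms4a3, and TGTGGT in 8.40% and in Ctsg. None of the 3 was found in that window of Mpo, Cebpa or Cebpb. The motifs searched for do not overlap in these genes, and a match is a description of the letters only. The 5 upstream stretches that hold a match are shown 5′ to 3′ on the gene's own strand, with the match in capitals (for Ctsg the capitals are the reverse complement of TGTGGT). Each printed stretch is the nearest run of 150 bases outside annotated exons. It ends 65 bases before the RefSeq start for Elane, 53 for Prtn3 and 7 for Fcnb, so for these genes it overlaps the searched window only in part, and it is the searched window itself for Ctsg and Ms4a3.
Elane (chr10:79886097-79886246, plus strand): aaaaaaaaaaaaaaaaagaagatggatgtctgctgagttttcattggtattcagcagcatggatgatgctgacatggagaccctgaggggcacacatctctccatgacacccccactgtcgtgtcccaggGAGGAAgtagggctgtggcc
Prtn3 (chr10:79879464-79879613, plus strand, within an intron of longer annotated transcripts): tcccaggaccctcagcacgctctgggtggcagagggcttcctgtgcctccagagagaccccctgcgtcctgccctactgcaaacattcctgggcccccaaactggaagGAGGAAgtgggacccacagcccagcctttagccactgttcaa
Ctsg (chr14:56102575-56102724, minus strand): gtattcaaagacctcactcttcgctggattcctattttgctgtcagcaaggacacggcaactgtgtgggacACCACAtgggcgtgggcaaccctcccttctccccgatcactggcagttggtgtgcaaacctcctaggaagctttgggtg
Ms4a3 (chr19:11640852-11641001, minus strand): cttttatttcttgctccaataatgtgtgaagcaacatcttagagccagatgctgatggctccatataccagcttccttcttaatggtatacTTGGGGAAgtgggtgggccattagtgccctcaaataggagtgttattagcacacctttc
Fcnb (chr2:28084886-28085035, minus strand): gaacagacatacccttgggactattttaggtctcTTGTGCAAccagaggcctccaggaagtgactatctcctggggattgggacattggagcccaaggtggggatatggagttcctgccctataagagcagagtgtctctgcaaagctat

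The 24 bulk libraries held 28896500 to 55276800 counts, and the 6 LK libraries held 28546967 to 44159208 UMIs in 24396 kept cells. The design aimed at 3000 cells for each LK library, and 2946 to 4866 were kept. Mettl3 mRNA was below WT in every Mettl3KO population: it stood at 11.6 to 22.4 counts per 1000000 (CPM) in the 12 Mettl3KO bulk libraries, against 29.6 to 42.5 CPM in the 12 WT ones. The LK libraries held 10.6 to 13.1 CPM in Mettl3KO and 18.7 to 22.5 CPM in WT. The labels do not name the exons that the Cre removes. The genes of the sort gates followed the labels: Slamf1 (CD150) had 5.05 to 63.2 CPM in HSC and MPP2 libraries and 0.542 to 4.37 CPM in MPP1 and MPP4 libraries, and Cd48 had 137 to 236 CPM in MPP2 and MPP4 libraries and 6.16 to 32.9 CPM in HSC and MPP1 libraries. Libraries stood apart in both assays. Mettl3KO MPP1 replicate 2 held 74817 CPM of 16 specific granule and late neutrophil genes summed, against 168 to 4729 CPM in the other 23 bulk libraries. WT LK replicate 3 held 24.2% later neutrophil-like cells, against 0.288% to 2.19% in the other 5. Across the 4 populations the 6 granule genes were highest in Mettl3KO replicate 2 in 24 of 24 cases, and highest in WT replicate 3 in 22 of 24. Same-numbered WT libraries deviated together, so WT values are also given with the replicate number as a block; same-numbered Mettl3KO and WT libraries did not.

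In WT marrow the mean levels of Mpo, Elane, Prtn3, Ctsg and Ms4a3 were lowest in HSC and highest in MPP2 and MPP4. Fcnb differed in having its highest WT mean in MPP1. Mpo had 3906, 2631 and 5803 CPM in WT MPP2, against 88.8, 36.8 and 182 CPM in WT HSC. In WT MPP4 Mpo had 3655, 2273 and 3634 CPM. Every MPP2 and MPP4 library lay above every HSC library, and the log2 difference to HSC was 5.33 ± 1.18 (SE, adjusted p = 0.015) for MPP2 and 4.96 ± 1.16 (adjusted p = 0.0097) for MPP4. Ctsg behaved alike, with 314, 203 and 383 CPM in WT MPP2 and 7.25, 0.761 and 15.5 CPM in WT HSC (log2 difference 5.26 ± 1.47, adjusted p = 0.049). Ms4a3 was 4.87 ± 1.30 higher on the log2 scale in MPP2 than in HSC (adjusted p = 0.040). Elane had 1222, 558 and 1503 CPM in WT MPP4, against 48.2, 10.1 and 93.0 CPM in WT HSC, without overlap (log2 difference 4.44 ± 1.39, adjusted p = 0.043).

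At adjusted p under 0.05, 4 of the 10 genes were higher in WT MPP2 than in WT HSC, against 2.51% of all 15545 genes tested that were higher and 3.91% called in either direction. In WT MPP4, 5 of 10 were higher, against 6.65% higher and 12% in either direction. The calls without the block rest on all 6 libraries of a pair. In MPP2 against HSC, Ctsg and Ms4a3 lost theirs whichever library was left out, Mpo without WT HSC replicate 1 or 2, and Cebpa without WT HSC replicate 3 or WT MPP2 replicate 1. In MPP4 against HSC, Elane lost its call whichever library was left out and Mpo without WT HSC replicate 2, while Ctsg, Ms4a3 and Cebpa kept theirs in 2 of 6 cases each. With the replicate block the counts became 8 and 7 of 10, but the shares of all genes above belong to the fit without it. The share of all genes called with the block is not given here, so these counts have no background to be read against. Prtn3 joined under the block in both, with a smaller step from HSC than its neighbour Elane: it had 631, 584 and 773 CPM in WT MPP2 and 196, 158 and 219 CPM in WT HSC, again without overlap. The blocked log2 difference was 1.79 (adjusted p = 0.0067) for Prtn3 and 4.91 (adjusted p = 6.6e-04) for Elane. Fcnb, the latest of the 6 in maturation, had 10.5, 7.77 and 44.2 CPM in WT MPP2 and 2.21, 0.571 and 23.7 CPM in WT HSC. The Fcnb groups overlapped and did not pass the test with or without the block.

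Among the granule genes, the order of the WT mean levels was MPP2 and MPP4, then MPP1, then HSC for Mpo, Elane, Prtn3, Ctsg and Ms4a3. Neighbours in that order did not pass the test: 0 of 10 genes were called between WT MPP4 and WT MPP2 (background 0.0901%, 0 at unadjusted p under 0.05, 0 by DESeq2). Between WT MPP1 and WT HSC 0 of 10 were called (background 0.0257%, 1 at unadjusted p under 0.05, 0 by DESeq2). WT MPP2 and WT MPP4 set against WT MPP1 gave 0 of 10 each, with backgrounds of 2.01% and 4.64%, 4 at unadjusted p under 0.05 and 2 by DESeq2 in each. With the block, Mpo, Elane, Ctsg and Ms4a3 were called in both of these comparisons, again with no background given for the blocked fit. Per kilobase of exon, Elane and Mpo were the most abundant of the 10 in WT MPP2, with 1211 and 1201 CPM per kb. Prtn3 followed with 382 and Ctsg with 290 CPM per kb. In WT HSC the order of these granule genes was another one: Prtn3 came first with 110, then Elane with 51.2 and Mpo with 29.9 CPM per kb. Cebpb had 156 CPM per kb there as deposited, but its counts come in steps of 3 and give 52.1 CPM per kb once divided by the step.

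**Figure D1:**
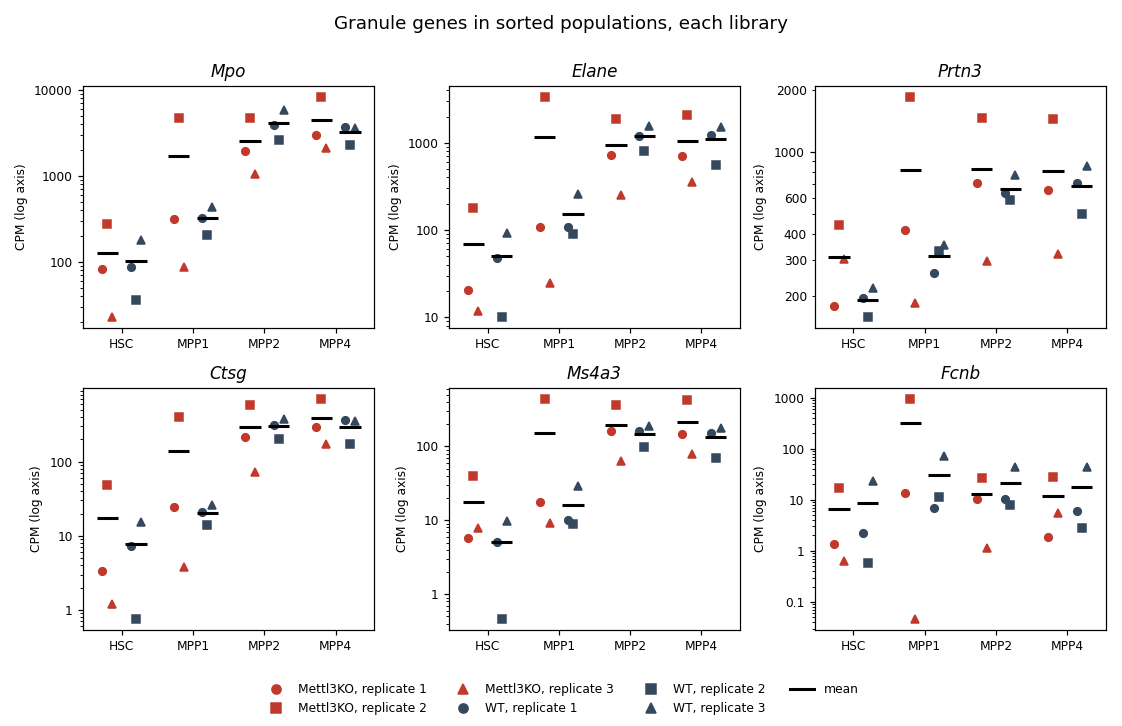
CPM of the 6 granule genes in the 4 sorted populations, on a log axis, with Mettl3KO libraries (red) left of WT libraries (dark); circles, squares and triangles are replicates 1, 2 and 3 and black bars are means. In WT, Mpo stands at 36.8 to 182 in HSC and at 2273 to 5803 in MPP2 and MPP4, and Mettl3KO MPP1 replicate 2 stands above the rest of its group in all 6 genes.

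Among the C/EBP genes, Cebpa was the one called between WT populations without the block. It had 224, 175 and 232 CPM in WT MPP2, against 63.0, 95.0 and 37.5 CPM in WT HSC. The groups did not overlap, and the log2 difference was 1.69 ± 0.38 (adjusted p = 0.015). WT MPP4 lay 1.33 ± 0.37 above WT HSC on the log2 scale (adjusted p = 0.027). Cebpd was higher under the block, by 1.72 in MPP2 (adjusted p = 0.0089) and by 1.73 in MPP4 (adjusted p = 0.0049). Cebpb had the smallest difference of the 10: its log2 difference to WT HSC was 0.37 ± 0.38 in MPP2 and 0.29 ± 0.38 in MPP4.

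Lists of related genes moved to different extents between WT MPP2 and WT HSC. Of 15 azurophil granule companions tested, 6 were higher in WT MPP2 than in WT HSC and 0 were lower, with a list median of 1.03 on the log2 scale against -0.00 over all genes. They included Cst7 (cystatin F, an inhibitor of granule proteases, 4.84 ± 1.13), Nkg7 (2.74 ± 0.64) and Plac8 (2.68 ± 0.42). Of 16 specific granule and late neutrophil genes, 0 were called by edgeR (1 at unadjusted p under 0.05) and 1 by DESeq2. Of 12 monocyte markers, 6 were higher, among them Csf1r, the M-CSF receptor (5.31 ± 1.27). The monocyte markers summed to 935 to 5049 CPM in WT MPP2, against 35.2 to 186 CPM in WT HSC. Of 10 basophil and mast markers, 4 were higher (Cpa3, Prss34, Mcpt8 and Ms4a2), with Cpa3, a mast cell carboxypeptidase, at 3.51 ± 0.52. Their sum overlapped, at 302 to 626 CPM in WT MPP2 and 320 to 409 CPM in WT HSC. In bulk RNA a change in the number of cells of a type and a change in RNA per cell cannot be told apart.

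Without Mettl3, Cebpa in HSC had the smallest adjusted p of the 10 genes in bulk. Cebpa had 21.6, 22.0 and 6.80 CPM in Mettl3KO HSC, against 63.0, 95.0 and 37.5 CPM in WT HSC. No Mettl3KO value reached the lowest WT value. The log2 fold change was -1.95 ± 0.38 (SE, adjusted p = 0.0035), and it stayed between -2.22 and -1.57 with each HSC library left out in turn, past the threshold each time. A fit of the HSC libraries alone gave an adjusted p of 0.059. The summed monocyte markers overlapped in HSC, at 102 to 210 CPM in Mettl3KO and 35.2 to 186 CPM in WT, as did the late neutrophil genes, at 194 to 2400 CPM in Mettl3KO and 217 to 1797 CPM in WT. The deposited Cebpa counts were multiples of 5 in 23 of 24 bulk libraries and the Cebpb counts multiples of 3 in all 24, as for 2.33% of 11720 well-counted genes; the reason was not tested. With the counts divided by these steps the HSC value for Cebpa was -1.95 (adjusted p = 0.0044).

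Cebpd moved the other way. It had 27.8, 63.6 and 42.5 CPM in Mettl3KO HSC, against 7.07, 7.12 and 15.0 CPM in WT HSC, without overlap (log2 fold change 2.19 ± 0.59, adjusted p = 0.030). In MPP1 it had 54.8, 345 and 55.4 CPM in Mettl3KO and 20.3, 15.1 and 22.5 CPM in WT, again without overlap (2.97 ± 0.61, adjusted p = 0.0054). Replicate 2 was the highest Mettl3KO library in both populations. Without it Cebpd was still called in MPP1, at 1.53 (adjusted p = 0.031), but not in HSC, where the adjusted p was 0.13. The HSC call was also lost without Mettl3KO replicate 3, WT replicate 1 or WT replicate 2. HSC thus held 2 of 10 called genes, 1 in each direction, against a background of 6.15%, and MPP1 held 1 of 10, which was higher, against 4.74% of genes higher and 8.63% in either direction.

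Cebpb had 450.4, 1005 and 524 CPM in Mettl3KO MPP1 and 206, 290.1 and 433 CPM in WT MPP1, without overlap. Its log2 fold change of 1.09 ± 0.39 did not pass (adjusted p = 0.082), and in HSC it was 0.71 ± 0.38 (adjusted p = 0.30) with overlapping groups. Cebpe was low in nearly all libraries, at 1.76, 7.71 and 2.72 CPM in Mettl3KO HSC and 1.67, 0.994 and 7.07 CPM in WT HSC. In MPP1 Cebpe had 3.21, 269 and 3.92 CPM in Mettl3KO and 4.90, 3.90 and 14.0 CPM in WT, so that 1 library set the Mettl3KO mean.

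In MPP2 and MPP4 none of the C/EBP genes passed. Cebpa had 108, 131 and 88.8 CPM in Mettl3KO MPP2, against 224, 175 and 232 CPM in WT MPP2. Those groups did not overlap, but the log2 fold change of -0.95 ± 0.37 missed the threshold (adjusted p = 0.20). In MPP4 Cebpa had 155, 268 and 104 CPM in Mettl3KO and 179, 136 and 176 CPM in WT, with overlap (0.10 ± 0.37, adjusted p = 0.95). The Cebpa effect in MPP4 minus that in HSC was 2.05 ± 0.53 on the log2 scale. That difference missed the threshold in edgeR (adjusted p = 0.052) and passed it in DESeq2 (adjusted p = 0.0040). No other difference of effects between a population and HSC was called: 0 of 10 for MPP1 (background 0.0386%, 1 at unadjusted p under 0.05, 0 by DESeq2), 0 of 10 for MPP2 (0.00643%, 0, 0) and 0 of 10 for MPP4 (1.55%, 2, 1).

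**Figure D2:**
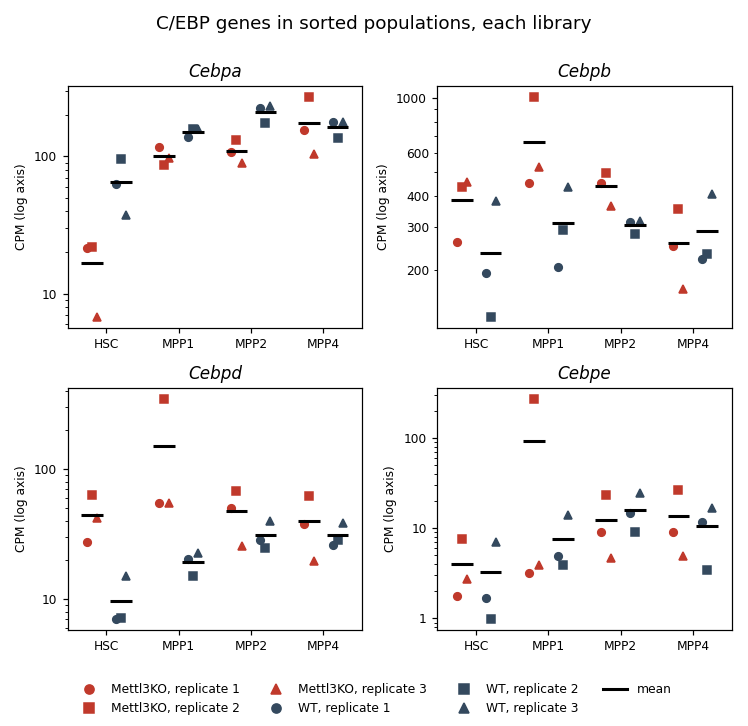
CPM of the 4 C/EBP genes in the 4 sorted populations, on a log axis, drawn as for the granule genes (Mettl3KO red and left, WT dark and right, bars are means). Cebpa separates in HSC, with 6.80 to 22.0 in Mettl3KO and 37.5 to 95.0 in WT, and Cebpd separates in HSC and MPP1 in the other direction.

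No granule gene was called by edgeR between Mettl3KO and WT in any sorted population. In MPP1 8 of the 10 genes had an unadjusted p under 0.05, and DESeq2 called 4 (Cebpd, Cebpb, Ms4a3 and Cebpe). Elane had 107, 3322 and 24.8 CPM in Mettl3KO MPP1 and 108, 89.9 and 257 CPM in WT MPP1. The other 2 Mettl3KO libraries lay on or below the WT range, and the log2 fold change was 2.92 ± 1.30 (adjusted p = 0.16). Replicate 2 stood 30.9 times above the next Mettl3KO library for Elane, 68.1 times for Fcnb, 68.7 times for Cebpe, 4.40 times for Prtn3 and 0.75 times for Cebpa. It is the library with the high late neutrophil sum. Of the 16 specific granule and late neutrophil genes, 1 was called in MPP1, Padi4, a peptidylarginine deiminase of neutrophils (0.87 ± 0.19, adjusted p = 0.0093). Without Mettl3KO replicate 2 of every population, the MPP1 log2 fold changes were -0.66 for Mpo, -1.19 for Elane, -2.15 for Fcnb and -1.08 for Cebpe, none of them called.

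In HSC the granule groups overlapped throughout. Mpo had 83.2, 279 and 23.2 CPM in Mettl3KO HSC and 88.8, 36.8 and 182 CPM in WT HSC (log2 fold change 0.32 ± 0.99, adjusted p = 0.91). Prtn3 had 179, 443 and 301 CPM in Mettl3KO HSC and 196, 158 and 219 CPM in WT HSC (0.69 ± 0.63, adjusted p = 0.59). In MPP2 Mpo had 1934, 4720 and 1049 CPM in Mettl3KO and 3906, 2631 and 5803 CPM in WT. In MPP4 it had 2955, 8134 and 2092 CPM in Mettl3KO and 3655, 2273 and 3634 CPM in WT. Both pairs overlapped, and the fold changes (-0.68 ± 0.99 and 0.46 ± 0.98) were within their errors. Over the 10 genes 0 were called in MPP2 (background 2.47%, 1 at unadjusted p under 0.05, 0 by DESeq2) and 0 in MPP4 (3.13%, 0, 0). The standard errors of 0.98 to 1.21 on the log2 scale for Mpo and Elane in MPP2 and MPP4 set what could be detected there.

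Regulators of the same path were called beside them. Csf2rb, the shared β chain of the IL-3, IL-5 and GM-CSF receptors, was higher in all 4 Mettl3KO populations, by 1.16 ± 0.29 in HSC, 1.87 ± 0.29 in MPP1, 1.27 ± 0.29 in MPP2 and 1.09 ± 0.29 in MPP4 on the log2 scale. Hoxa9, a homeobox factor of immature cells, was lower in HSC (-0.69 ± 0.20), MPP1 (-0.74 ± 0.20) and MPP4 (-1.13 ± 0.20). Of 21 regulators and receptors listed, 2 were higher and 1 was lower in HSC, with a list median of -0.24 against 0.00 over all genes. Of 9 C/EBP relatives and partners, 2 were higher and 1 was lower in HSC. Cebpg, a C/EBP relative without a transactivation domain, was 0.83 ± 0.16 higher (adjusted p = 0.0037). Trib2, a pseudokinase that targets C/EBPα protein for degradation, was lower in HSC by 4.82 ± 1.08 (adjusted p = 0.0095) and in MPP1 by 3.53 ± 1.01 (adjusted p = 0.036). Of 15 azurophil companions, Plac8 was higher (1.73 ± 0.40) and Ap3b1 lower (-0.67 ± 0.20) in HSC.

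In the LK cells, which include the granulocyte and monocyte progenitors, 6 of 9 genes fell in Mettl3KO and 0 rose, against 8.72% of 13071 genes lower and 22.4% called in either direction. Counts were summed over all kept cells of a library. Mpo had 2389, 1643 and 2123 CPM in Mettl3KO LK cells, against 3191, 3613 and 3122 CPM in WT LK cells. The groups did not overlap (log2 fold change -0.68 ± 0.14, adjusted p = 0.0096). Elane had 4078, 2214 and 3989 CPM in Mettl3KO and 6546, 6798 and 5334 CPM in WT, also without overlap (-0.86 ± 0.22, adjusted p = 0.026). Ctsg (-0.50 ± 0.09, adjusted p = 0.0077) and Ms4a3 (-0.35 ± 0.10, adjusted p = 0.037) fell as well.

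Cebpe, the factor of later granulocytes, had 70.1, 43.4 and 66.9 CPM in Mettl3KO LK cells, against 100, 110 and 236 CPM in WT LK cells (-1.30 ± 0.33, adjusted p = 0.027). Fcnb had 88.5, 23.9 and 59.0 CPM in Mettl3KO and 110, 133 and 364 CPM in WT (-1.82 ± 0.56, adjusted p = 0.049). Neither pair overlapped, and for both the highest value was WT replicate 3, the library with 24.2% later neutrophil-like cells. With those cells left out of every library, Cebpe had 63.8, 33.9 and 66.7 CPM in Mettl3KO and 90.0, 108 and 85.6 CPM in WT. Cebpe was then still called (-0.78, adjusted p = 0.025), while Fcnb was not (-1.19, adjusted p = 0.071). The same step brought Prtn3 (-0.39, adjusted p = 0.032) and Cebpa (-0.36, adjusted p = 0.042) past the threshold, so that 7 of 9 were called. The shares of all genes given for LK belong to the fit with all cells. The share for the fit without later neutrophil-like cells is not given here, so the 7 of 9 has no background to be read against. With all cells, Prtn3 had 2474, 2008 and 2387 CPM in Mettl3KO and 3108, 3382 and 2351 CPM in WT, with overlap (-0.36 ± 0.14, adjusted p = 0.11). Cebpb had 24.8, 10.2 and 19.6 CPM in Mettl3KO and 19.7, 26.1 and 16.0 CPM in WT (-0.17 ± 0.30, adjusted p = 0.72). Leaving out each library in turn kept the calls of Mpo and Ctsg in 6 of 6 cases, Elane in 4, Cebpe in 3, and Fcnb and Ms4a3 in 1. Elane lost its call without WT replicate 1 or 2, and Cebpe without any 1 of the Mettl3KO replicates. Fcnb kept its call without WT replicate 1, and Ms4a3 without WT replicate 3.

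The share of LK cells with each transcript was also counted, and no share passed after adjustment. After each cell was thinned to 2000 UMIs, Elane was seen in 38.9%, 25.6% and 40.0% of Mettl3KO cells, against 60.1%, 61.2% and 46.9% of WT cells. Mpo was seen in 41.9%, 32.6% and 41.8% of Mettl3KO cells and 63.4%, 65.5% and 48.0% of WT cells. Both separated without overlap (exact two-sided permutation p = 0.1, the smallest that 3 against 3 allow; 0.15 after Benjamini-Hochberg over 9 genes). Prtn3 was seen in 64.1%, 48.0% and 56.6% of Mettl3KO cells and 64.8%, 66.7% and 51.5% of WT cells, with overlap (exact p = 0.5). In early erythroid-like cells Elane was seen in 8.96% to 14.7% of Mettl3KO cells and 21.6% to 28.6% of WT cells. The part of free RNA in such shares was not tested. The median depth before thinning was 7503 to 7878 UMIs a cell in Mettl3KO LK libraries and 5945 to 10490 in WT ones. Cells with 5 or 6 of the granule genes made up 22.0%, 16.5% and 23.6% of Mettl3KO LK cells, against 38.1%, 38.4% and 25.2% of WT LK cells. Cells with none of the 6 made up 21.3%, 36.4% and 26.8% in Mettl3KO and 16.3%, 15.1% and 17.7% in WT.

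The makeup of LK differed too. Clusters were formed without the 10 genes and named from marker lists. Granulocyte progenitor-like cells made up 13.6%, 7.13% and 13.2% of Mettl3KO LK cells, against 19.8%, 23.7% and 13.2% of WT LK cells (exact permutation p = 0.2; 0.24 after adjustment over 12 classes). Monocyte progenitor-like cells made up 9.96%, 9.27% and 11.2% in Mettl3KO and 18.1%, 15.5% and 11.5% in WT (exact p = 0.1). B cell-like cells, whose lineage the sort should remove, made up 16.7%, 30.2% and 24.5% in Mettl3KO and 6.80%, 3.53% and 4.05% in WT. The shares of both myeloid classes moved in the direction of the LK sums, and their part in those sums was not tested. Levels within a class leave out the cells of other classes, but the clusters pooled in a class can be mixed differently in each library.

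Within granulocyte progenitor-like cells (clusters 6, 7 and 12; 1427 Mettl3KO and 2296 WT cells) 1 of 9 genes was called, lower, against 0.491% of 9980 genes lower and 1.31% in either direction. It was Elane, with 16988, 12281 and 17371 CPM in Mettl3KO, against 21601, 21809 and 23786 CPM in WT. The groups did not overlap (log2 fold change -0.52 ± 0.12, adjusted p = 0.046). The call is near the threshold: it was lost in 5 of 6 fits that left out a library (all but Mettl3KO replicate 2), with clusters cut at a Leiden resolution of 0.5, and with no filter on mitochondrial UMIs. By cluster, Elane spanned 9459 to 12654 CPM in Mettl3KO and 16470 to 19244 CPM in WT in cluster 6. In cluster 7 it spanned 14468 to 19986 CPM in Mettl3KO and 22093 to 24979 CPM in WT, and in cluster 12, led by Clec4a2, Wfdc21 and G0s2, 20448 to 24769 CPM in Mettl3KO and 25297 to 28379 CPM in WT. In each of the 3 clusters every Mettl3KO library lay below every WT library. Markers of other cell types moved in the same class. Of 10 basophil and mast markers 6 were tested, and Mcpt8 was higher (0.91 ± 0.09, adjusted p = 4.0e-04), while Cpa3 (-1.17 ± 0.22), Prss34 (-2.04 ± 0.46) and Hdc (-0.54 ± 0.12) were lower. The list summed to 196 to 220 CPM in Mettl3KO and 198 to 209 CPM in WT, and the late neutrophil genes to 8694 to 14439 CPM in Mettl3KO and 11710 to 36812 CPM in WT. Their part in the Elane difference was not tested.

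Prtn3, Ctsg and Ms4a3 did not pass the test in these cells, with small standard errors. Prtn3 had 7784, 7444 and 8025 CPM in Mettl3KO granulocyte progenitor-like cells and 8009, 8948 and 7969 CPM in WT ones (-0.09 ± 0.08, adjusted p = 0.64). Ms4a3 had 2398, 2514 and 2607 CPM in Mettl3KO and 2479, 2637 and 2690 CPM in WT (-0.05 ± 0.08, adjusted p = 0.84). Both pairs overlapped. Mpo had 7869, 6593 and 7153 CPM in Mettl3KO and 7955, 9191 and 10412 CPM in WT, without overlap but not called (-0.34 ± 0.10, adjusted p = 0.12; called by DESeq2 at 0.046).

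Of the C/EBP genes, Cebpa had 48.6, 51.8 and 47.4 CPM in Mettl3KO granulocyte progenitor-like cells and 44.7, 52.8 and 42.7 CPM in WT ones, with overlap (0.07 ± 0.10, adjusted p = 0.80). Cebpe had 300, 213 and 338 CPM in Mettl3KO and 356, 398 and 386 CPM in WT, without overlap (-0.41 ± 0.13, adjusted p = 0.13). Fcnb had 406, 118 and 318 CPM in Mettl3KO and 403, 512 and 643 CPM in WT (-0.86 ± 0.29, adjusted p = 0.17). Cebpa and Cebpe ran in opposite order between clusters 6 and 12. In WT, Cebpa spanned 46.8 to 60.1 CPM in cluster 6 and 29.7 to 47.2 CPM in cluster 12, with overlap. Cebpe spanned 285 to 312 CPM in cluster 6 and 557 to 583 CPM in cluster 12. Mettl3KO showed the same order, with Cebpa at 56.9 to 66.2 CPM and 27.7 to 42.6 CPM, and Cebpe at 157 to 265 CPM and 508 to 596 CPM, in clusters 6 and 12. In the later neutrophil-like cluster 8 Elane was down to 675 to 694 CPM in the 2 Mettl3KO libraries with enough cells and 617 to 667 CPM in the 2 WT ones.

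**Figure D3:**
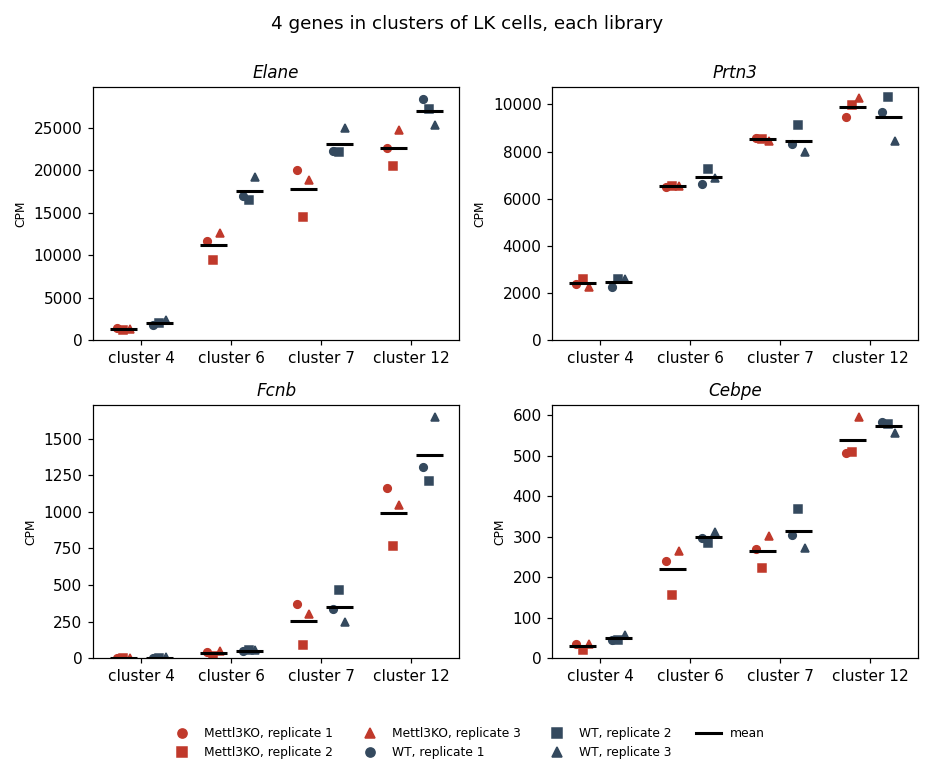
CPM of Elane, Prtn3, Fcnb and Cebpe in clusters 4, 6, 7 and 12 of LK cells, on linear axes from 0, with Mettl3KO libraries (red) left of WT libraries (dark); symbols are replicates and bars are means. Elane is lower in every Mettl3KO library of clusters 6, 7 and 12, while Prtn3 overlaps in clusters 7 and 12, and Fcnb is highest in cluster 12.

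The 2 neighbouring proteases of chromosome 10 were also set against each other inside each library. The ratio was chosen after both genes had been seen in these cells and restates their values, so it is given with no test. In granulocyte progenitor-like cells there were 45.8, 60.6 and 46.2 Prtn3 UMIs per 100 Elane UMIs in Mettl3KO, against 37.1, 41.0 and 33.5 in WT. Every Mettl3KO ratio lay above every WT ratio (mean 50.9 ± 8.44 in Mettl3KO and 37.2 ± 3.77 in WT, SD, n = 3 each). Monocyte progenitor-like cells had 79.9, 127 and 80.3 in Mettl3KO and 67.7, 71.8 and 70.8 in WT, and lymphoid-primed-like cells had 530.4, 1223 and 582 in Mettl3KO and 437, 441 and 523 in WT. The ratios overlapped in early erythroid-like cells, at 75.4, 151 and 50.9 in Mettl3KO and 51.3, 59.3 and 47.2 in WT, and in dendritic-like cells, at 66.3, 336 and 121 in Mettl3KO and 121, 101 and 111 in WT. The ratio of Mpo to Elane overlapped in granulocyte progenitor-like cells, at 46.3, 53.7 and 41.2 Mpo UMIs per 100 Elane UMIs in Mettl3KO and 36.8, 42.1 and 43.8 in WT. In both groups Prtn3 exceeded Elane in lymphoid-primed-like cells, and Elane exceeded Prtn3 in granulocyte progenitor-like cells.

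**Figure D4:**
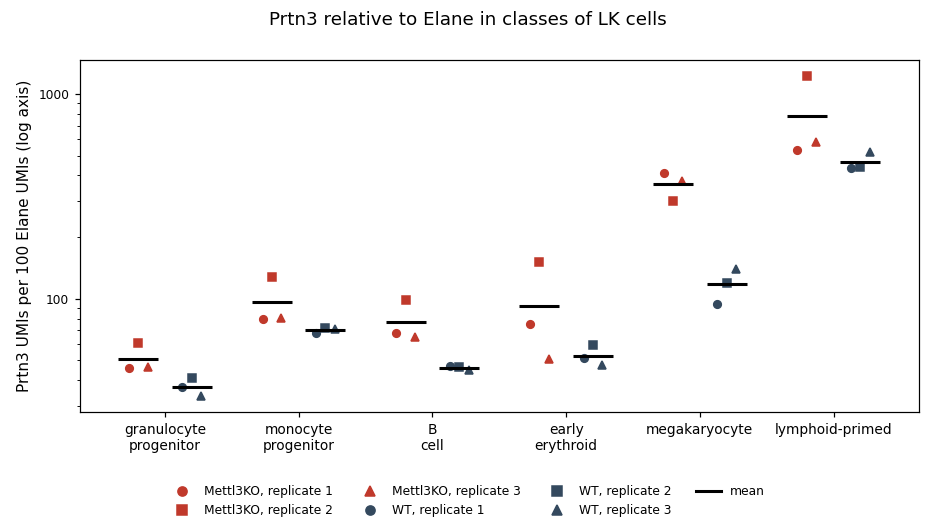
Prtn3 UMIs per 100 Elane UMIs in 6 classes of LK cells, on a log axis, with Mettl3KO libraries (red) left of WT libraries (dark); symbols are replicates and bars are means. In granulocyte progenitor-like cells the ratios are 45.8 to 60.6 in Mettl3KO and 33.5 to 41.0 in WT.

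In monocyte progenitor-like cells (clusters 0 and 13; 1242 Mettl3KO and 1858 WT cells) 0 of 9 genes were called, against 0.781% of genes (5 at unadjusted p under 0.05, 0 by DESeq2). Elane had 5803, 3612 and 5791 CPM in Mettl3KO and 6955, 6804 and 5897 CPM in WT. The groups did not overlap, and the log2 fold change was -0.37 ± 0.13 (adjusted p = 0.27). Prtn3 had 4635, 4605 and 4648 CPM in Mettl3KO and 4711, 4882 and 4178 CPM in WT (0.02 ± 0.07, adjusted p = 0.95). Ms4a3 had the opposite sign to Elane, with 776, 886 and 784 CPM in Mettl3KO and 742, 697 and 634 CPM in WT (0.24 ± 0.07, adjusted p = 0.19).

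Lymphoid-primed-like cells (cluster 5, led by Wfdc17 and Flt3, with Dntt and the stem cell gene Hlf among its top 10 genes) carried low levels of the same genes, and 3 of 7 tested fell, against 1.79% of 7866 genes lower and 3.42% in either direction. Prtn3, the most abundant there, had 628, 480 and 580 CPM in Mettl3KO, against 743, 965 and 811 CPM in WT, without overlap (-0.59 ± 0.11, adjusted p = 0.0062). Mpo had 351, 205 and 218 CPM in Mettl3KO and 400, 538 and 468 CPM in WT, also without overlap (-0.87 ± 0.16, adjusted p = 0.0046). Elane had 118, 39.3 and 99.8 CPM in Mettl3KO and 170, 219 and 155 CPM in WT (-1.10 ± 0.23, adjusted p = 0.013). Prtn3 lost its call without Mettl3KO replicate 2, and Elane without WT replicate 2. WT lymphoid-primed-like cells averaged 840 CPM of Prtn3, 469 of Mpo and 181 of Elane, while WT early erythroid-like cells averaged 147, 182 and 279 CPM of the same genes. With no filter on mitochondrial UMIs, or at a Leiden resolution of 0.5, no cluster took the lymphoid-primed name, so the class and its calls depend on the clustering. DESeq2 called 1 of the genes in it. In early erythroid-like cells (clusters 2 and 11) 3 of 9 genes fell, against 3.07% of genes lower and 6.65% in either direction. Mpo had 98.3, 57.8 and 119 CPM in Mettl3KO and 174, 188 and 184 CPM in WT (-0.97 ± 0.17, adjusted p = 0.0057); Cebpa (-1.38 ± 0.30) and Ctsg (-0.86 ± 0.24) were the others. Cebpa lost its call without Mettl3KO replicate 1 or 2, and Ctsg kept its call only without Mettl3KO replicate 3. The part of free RNA in these differences was not tested.

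Megakaryocyte-like cells gave calls in both directions, 6 of 7 tested against a background of 32.5%. Prtn3 had 369, 457 and 360 CPM in Mettl3KO, against 240, 202 and 151 CPM in WT, without overlap (0.97 ± 0.14, adjusted p = 3.5e-05). Cebpb had 23.7, 14.3 and 23.9 CPM in Mettl3KO and 4.76, 5.44 and 2.80 CPM in WT (2.27 ± 0.32, adjusted p = 3.5e-05). Mpo (-0.82 ± 0.17), Ms4a3 (-0.66 ± 0.17), Elane (-0.70 ± 0.23) and Ctsg (-0.63 ± 0.23) fell. Elane and Ctsg kept their calls in 2 of 6 cases, without Mettl3KO replicate 2 or without WT replicate 3. The class is made of different clusters in the groups: 473, 198 and 442 Mettl3KO cells were in cluster 10, which held 2 WT cells, while 193, 185 and 237 WT cells were in cluster 15, which held 22, 26 and 35 Mettl3KO cells. Within cluster 15 Prtn3 spanned 113 to 815 CPM in Mettl3KO and 158 to 243 CPM in WT, with overlap. At a Leiden resolution of 0.5 no cluster took the megakaryocyte name, so the class and its calls depend on the clustering.

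Cells with HSC/MPP markers (clusters 3 and 16) were nearly all Mettl3KO, 2480 cells against 16 in WT, so no comparison was made. In Mettl3KO they held Prtn3 at 897 to 1134 CPM in cluster 3 and 840 to 996 CPM in cluster 16, with 863, 2393 and 865 Prtn3 UMIs per 100 Elane UMIs. With no filter on mitochondrial UMIs, a cluster led by Wfdc17 and Flt3, as cluster 5 is, took the HSC/MPP name. It held 161, 174 and 164 Mettl3KO cells and 425, 387 and 408 WT cells. The near absence of WT cells under that name thus depends on the clustering, but a cluster with few WT cells stayed in each. Without the filter another HSC/MPP cluster held 905, 276 and 698 Mettl3KO cells and 4, 4 and 5 WT cells. At a Leiden resolution of 0.5 the HSC/MPP cluster held 1676, 627 and 1352 Mettl3KO cells and 8, 9 and 6 WT cells. B cell-like cells (clusters 1, 9 and 20) had 6 of 8 tested genes lower in Mettl3KO, against 0.329% of genes lower and 0.52% in either direction. Elane had 628, 499 and 648 CPM in Mettl3KO, against 1382, 2665 and 1374 CPM in WT, without overlap (log2 fold change -1.64 ± 0.18, adjusted p = 5.9e-04). Prtn3 fell by 0.92 ± 0.17 (adjusted p = 0.018), a call lost without Mettl3KO replicate 1 or 3. At a Leiden resolution of 0.5 only 1 gene was called in the class and Prtn3 stood at 0.024, and DESeq2 called 3. Cebpe lost its call without Mettl3KO replicate 3 or WT replicate 2, and Ms4a3 without either of these or Mettl3KO replicate 1. Cluster 20 held most of the signal: 88.8%, 92.3% and 87.1% of the Elane UMIs of the class in 63, 47 and 87 Mettl3KO cells, and 88.0%, 93.9% and 93.2% in 19, 15 and 13 WT cells. In cluster 1 Elane spanned 36.5 to 96.2 CPM in Mettl3KO and 131 to 255 CPM in WT, and in cluster 9 it spanned 52.0 to 89.6 CPM in Mettl3KO and 79.7 to 234 CPM in WT, with overlap. Cluster 20 had a median of 10968.5 UMIs a cell, against 4983 in cluster 1, and the part of doublets was not tested. In dendritic-like cells 0 of 5 were called (background 0.532%, 1 at unadjusted p under 0.05, 0 by DESeq2).

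**Figure D5:**
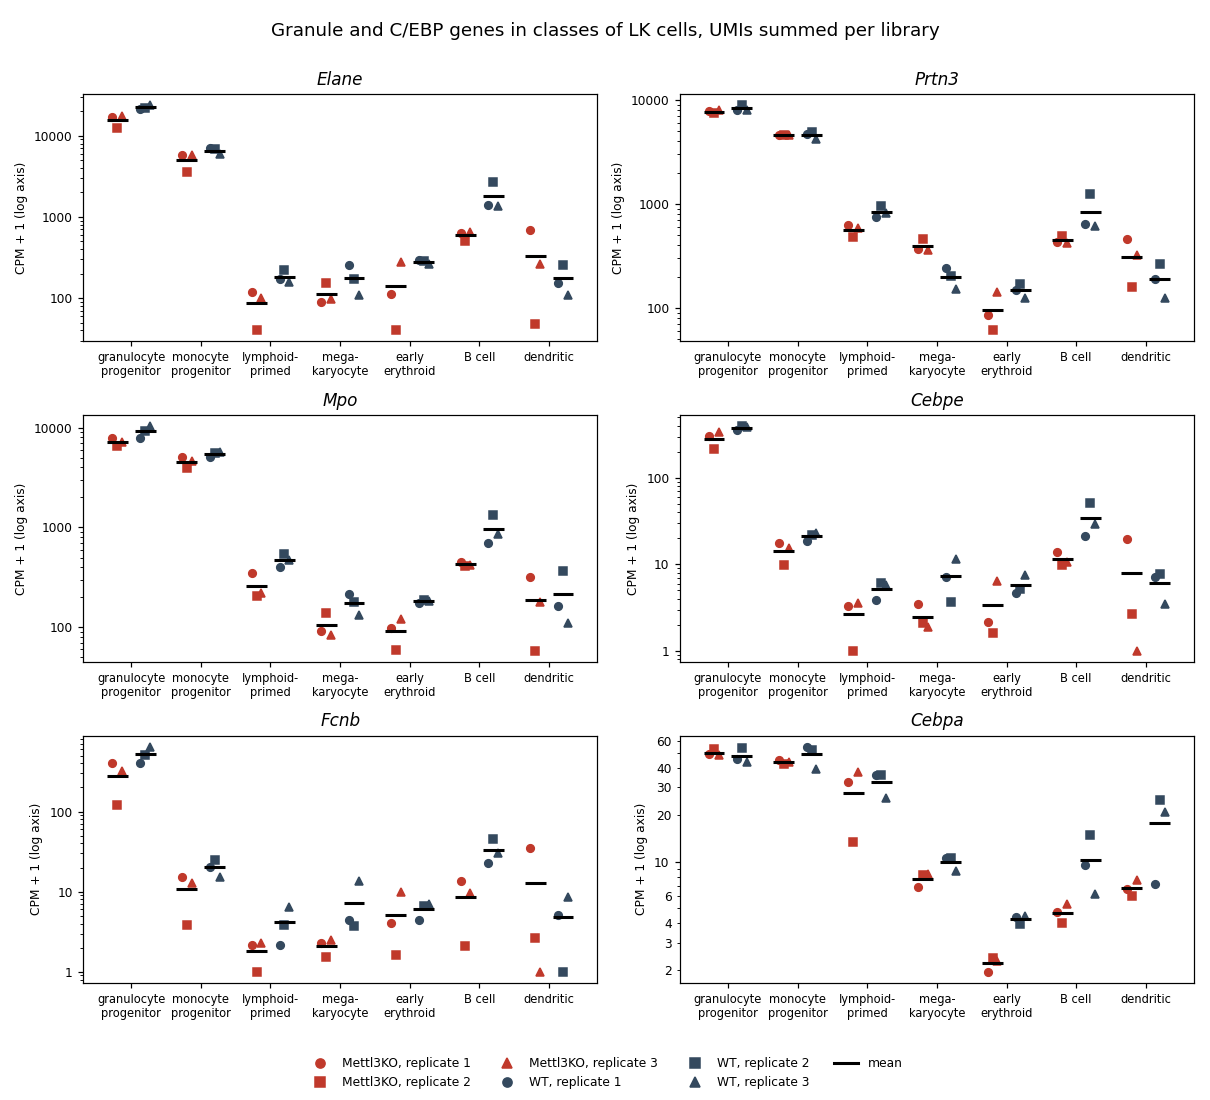
CPM plus 1 of Elane, Prtn3, Mpo, Cebpe, Fcnb and Cebpa in 7 classes of LK cells, on a log axis, with Mettl3KO libraries (red) left of WT libraries (dark); symbols are replicates and bars are means. Elane is highest in granulocyte progenitor-like cells, at 12281 to 17371 in Mettl3KO and 21601 to 23786 in WT, and Prtn3 is higher in Mettl3KO in the megakaryocyte-like class.

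Over classes in WT, Elane averaged 22399 ± 1206 CPM in granulocyte progenitor-like cells and 6552 ± 572 CPM in monocyte progenitor-like cells (SD, n = 3 each). Cebpe separated the 2 classes more, at 380.0 ± 21.3 CPM and 20.3 ± 2.47 CPM, and so did Fcnb, at 519 ± 120.0 CPM and 19.2 ± 4.95 CPM. Cebpa and Cebpb did not separate them beyond their spread: Cebpa averaged 46.7 ± 5.36 CPM and 48.0 ± 8.17 CPM, and Cebpb 39.8 ± 10.6 CPM and 39.6 ± 12.5 CPM. Cebpa was also present in lymphoid-primed-like cells, at 31.5 ± 6.04 CPM, and low in early erythroid-like cells, at 3.27 ± 0.26 CPM. In later erythroid-like cells (cluster 14) it stood at 0.60, 1.25 and 0.96 CPM in WT.

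Listed companions in LK sums were split. Of 15 azurophil companions, 4 were lower and 1 was higher, with a median of -0.22 against -0.00 over all genes. Nkg7 (-0.56 ± 0.12) and Slpi (-0.65 ± 0.14) were lower, while Ctsc, the protease that activates the granule serine proteases, was higher (0.46 ± 0.11). Of 16 specific granule and late neutrophil genes 0 were called by edgeR or DESeq2 (6 at unadjusted p under 0.05), with a median of -2.61, and WT replicate 3 holds most of their cells. Of 10 basophil and mast markers 7 were lower. Trib2 was lower (-1.69 ± 0.20) and Trib3, a stress-induced relative, was higher (2.26 ± 0.28). Within granulocyte progenitor-like cells Csf2rb was higher (0.73 ± 0.16, adjusted p = 0.038) and Cd63, a membrane protein of azurophil granules, was lower (-0.50 ± 0.11, adjusted p = 0.038). Of 13 specific granule and late neutrophil genes tested in that class, 0 were called by edgeR or DESeq2 (9 at unadjusted p under 0.05 in edgeR).

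The genes whose levels ran most like those of the named ones are given as a description. Over the 24 bulk libraries, which share populations and depth, Mpo was nearest to Atp8b4 (Pearson's r = 0.98), Cst7 (0.97), Rab44 (0.97), Ly6c2 (0.97) and Clec12a (0.96). Cebpa was nearest to Rasa4 (0.91), Emb (0.91), Egln3 (0.89) and Fam105a (0.87). Over the 42 sums per library and class of LK cells, which share libraries, Elane was nearest to Trem3 (0.97), Dmkn (0.97), Fcgr3 (0.96), Cldn15 (0.96) and Msrb1 (0.94). Cebpe was nearest to Chst13 (0.93), Trem3 (0.91), Wfdc21 (0.91), G0s2 (0.89) and Hsd11b1 (0.88).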

How the data were processed

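Bulk values were the deposited counts per gene. The authors' table is named for FPKM but holds whole numbers that sum to a different total in each library, so they were treated as raw counts; whether counting used strand is not given in the sources used here. The submitters' processing notes name TopHat, Bowtie and, for the 10x libraries, Cell Ranger 2.2, with the builds mm10 and GRCh37 given no roles. Per the labels' protocols, bulk RNA was amplified with SMARTer and sequenced as paired 50 bp reads, and replicates came from different mice. The single-cell table holds deposited UMI counts per cell. Cells with at most 10% mitochondrial UMIs were kept (24396 of 24693). Of 24389 barcodes 303 occurred in more than 1 library, at most 30 in any pair. Scrublet marked 248 cells (1.02%), which were kept.

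Cells were clustered with scanpy 1.11.5 (1992 variable genes without the 10 genes, 30 components, 20 neighbours, Leiden resolution 1; leidenalg 0.10.2). Clusters were named "X-like" from marker lists. UMIs were summed per library, and per class where every library had at least 50 cells. Counts were tested with edgeR 4.0.16 in R 4.3.3 (filterByExpr, TMM, quasi-likelihood, two-sided, Benjamini-Hochberg over all genes tested, threshold 0.05). The 24 bulk libraries shared one fit of 8 group means, and each set of LK sums was fitted on 6 libraries. The standard error was taken as the log2 fold change over the square root of F. CPM are counts per 1000000 of the library's total after TMM scaling. For the genes of the sort gates, values by cluster and list sums in granulocyte progenitor-like cells, the total was not scaled. Exact permutation tests used scipy 1.17.1 in Python 3.11.15. P-values measure the spread between these libraries.

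The scripts were tested on simulated counts with 200 changed genes. In the HSC comparison 2-fold changes were recovered in 18% and 4-fold changes in 54% of cases, and in 77% and 95% for LK. For granulocyte progenitor-like cells the values were 86% and 96%. Unchanged genes called numbered 3 in HSC, 11 in LK and 17 in granulocyte progenitor-like cells. Same-numbered WT libraries of different populations deviated together (correlations 0.113 to 0.511 in 18 of 18 pairs). This was read as pairing from the data, since the labels only number the replicates. For replicate 2 of WT MPP2 and MPP4 the value of 0.113 was below that of another number, 0.152. Same-numbered Mettl3KO libraries of different populations ranged from -0.49 to 0.68, and the block within genotype covered them too. Same-numbered Mettl3KO and WT libraries did not deviate together (-0.54 to 0.26 in bulk). The genes, the lists and the classes were chosen with earlier results of these data known. From each list, at most 4 called genes with the smallest adjusted p were eligible to be named in a comparison; genes of which all libraries of a group are near 0 were left out, and the list of nearest genes holds the 5 with the highest Pearson correlation, of which 1 for Cebpa is not reported here. Alternatives were DESeq2 1.42.0, limma 3.58.1 (voom with quality weights), RLE size factors, no filter on low counts, replicate blocks, fits of the compared groups alone, each library left out, other clustering and cell filters and, added after seeing the data, all Mettl3KO replicate 2 bulk libraries left out, later neutrophil-like cells left out, and stepped counts divided by their step. RefSeq promoters (250 bases before to 50 after the start) were cut to the 150 bases outside annotated exons.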

Additional observations from a re-analysis of the deposited data

Results flagged for a closer look

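Prtn3 differed in direction between classes of LK cells. Its log2 fold change between Mettl3KO and WT was -0.92 in B cell-like cells and 0.97 in megakaryocyte-like cells, with no overlap between the groups in either class. The difference between the 2 effects was -1.84 on the log2(CPM + 1) scale. The log2 fold change was likewise -0.59 in lymphoid-primed-like cells and 0.97 in megakaryocyte-like cells, a difference of -1.59. Both pairs of classes were picked because the groups separated in opposite directions. The exact two-sided permutation p of 0.1 was fixed by that choice, so it does not test the difference. The megakaryocyte-like class is cluster 10 in Mettl3KO and cluster 15 in WT, and within cluster 15 the Prtn3 groups overlapped. No cluster took the megakaryocyte name at a Leiden resolution of 0.5. In B cell-like cells the value depended on the clustering, at 0.024 with a Leiden resolution of 0.5. There the Elane UMIs came mostly from cluster 20, and the share of Prtn3 UMIs was not counted. In cluster 20 Prtn3 spanned 2299 to 3984 CPM in Mettl3KO. The 19, 15 and 13 WT cells of that cluster were too few for a level, so the groups were not compared in it.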

How the results depend on the processing

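Counts are of the 10 genes (9 or fewer in LK) called at adjusted p under 0.05, with the reported count in brackets. The cause of a move was not tested. The shares of all genes given in the Results belong to the reported counts. With DESeq2 the count was 4 in MPP1 (1), 1 for MPP4 minus HSC (0), 2 for WT MPP2 against MPP1 and 2 for WT MPP4 against MPP1 (0 each), 3 in B cell-like (6), 1 in early erythroid-like (3), 2 in granulocyte progenitor-like (1), 1 in lymphoid-primed-like cells (3) and 12 over all classes (19). With only the compared groups fitted it was 1 in HSC (2), 0 in MPP1 (1), 1 in MPP2 (0), 7 for WT MPP2 against HSC (4), and 5 each for WT MPP2 and WT MPP4 against MPP1 (0). limma voom with quality weights gave 1 in MPP2, for MPP4 minus HSC and for WT MPP1 against HSC (0 each), 7 for WT MPP2 against HSC (4), and 4 each for WT MPP2 and WT MPP4 against MPP1 (0). RLE size factors and no filter on low counts each gave 1 for MPP4 minus HSC. No filter also gave 2 in dendritic-like (0), 7 in early erythroid-like (3), 4 in granulocyte progenitor-like (1), 5 in monocyte progenitor-like cells (0) and 37 over classes (19). A Leiden resolution of 0.5 gave 1 in B cell-like (6), 0 in granulocyte progenitor-like cells (1) and 3 over 5 classes (19), and no mitochondrial filter gave 0 in granulocyte progenitor-like cells.

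The replicate block over genotypes, whose numbers do not pair Mettl3KO with WT, gave 1 for MPP4 minus HSC (0), 0 in granulocyte progenitor-like cells (1) and 3 in LK (6). The replicate block within genotype gave 1 for MPP4 minus HSC, 8 for WT MPP2 against HSC (4), and 4 each for WT MPP2 and WT MPP4 against MPP1 (0); it moved no other count of called genes by over 1.5 times. Leaving out 1 library at a time gave 1 to 2 in HSC, 1 to 2 in MPP1, 0 to 1 for MPP4 minus HSC, 1 to 2 for WT MPP2 against HSC, 1 to 4 for WT MPP4 against HSC, 3 to 7 in LK, 0 to 1 in granulocyte progenitor-like, 2 to 3 in lymphoid-primed-like, 4 to 6 in megakaryocyte-like, 1 to 7 in early erythroid-like, 3 to 7 in B cell-like and 0 to 2 in dendritic-like cells, 13 to 19 over classes, and 0 in MPP2, MPP4 and monocyte progenitor-like cells. Between 6 and 8 shares of cells separated. Prtn3 in B cell-like cells reversed to 0.024 at Leiden resolution 0.5. Without the Mettl3KO replicate 2 bulk libraries 31 of 67 uncalled values changed sign. The share of called genes that were higher moved by over 10 points from edgeR to DESeq2 in MPP2 (60.9% to 49.1%), lymphoid-primed-like (47.6% to 61.5%) and monocyte progenitor-like cells (58.4% to 68.8%). It also did where edgeR called 6 genes or fewer: MPP1 minus HSC (83.3% to 50.9%), MPP2 minus HSC (100% to 38.6%) and WT MPP1 against HSC (75% to 56.8%); no scaling moved the median of all genes by over 0.1. Mpo and Elane rest on many reads in bulk and their error is the spread between libraries; Cebpa, Cebpb and Fcnb rest on few UMIs outside myeloid classes.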
